A study of Danio rerio with 24 samples.

Results

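Glutamate, GABA and glycine receptors are the proteins through which most fast signals pass between nerve cells. AMPA and NMDA receptors are cation channels opened by glutamate, whereas GABA-A and glycine receptors are chloride channels that mostly quiet mature neurons, and the metabotropic glutamate receptors and the GABA-B receptor act through G proteins. Each channel is assembled from several subunits encoded by separate genes, and the zebrafish keeps a pair of copies of many of them, named a and b. These genes are used mainly in brain, spinal cord and retina, and some GABA and glutamate receptor subunits have also been described in ovary of other vertebrates.

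The subunits described here were all array targets (a target is a transcript the array interrogates with 1 or more probes) that carried the RefSeq identifier of a zebrafish gene with a symbol of the glutamate, GABA or glycine receptor subunit families (such as gria, grin, grik, grm, gabr, gabbr and glr). This gave 32 targets of 31 genes, out of 89208 targets on the array and out of 79 annotated genes with such a symbol. They included 8 AMPA, 3 NMDA and 3 metabotropic glutamate receptor targets, 9 GABA-A and 1 GABA-B receptor targets, and 7 glycine receptor targets, of which 2 belong to glra4a. No kainate receptor (grik) target carried such an identifier. Only 13710 targets (15.4%) could be given a symbol in this way, so further subunits may lie among the targets without one.

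RNA labelled as ovary came from adult AB wildtype female zebrafish of 5 to 6 mpf (months post fertilization) that as embryos had received 0.3, 3 or 30 ppb of the herbicide atrazine, or 0 ppb, from 1 to 72 hpf (hours post fertilization). All fish were raised without atrazine afterwards. Each treatment had 6 one-color arrays, and arrays with the same replicate number shared a slide. The methods define biological replicates as groups started on different days, but the labels give no start day. The array is a custom design, and every level below is the log2 intensity relative to the 75th percentile of its own array, so that 0 means as bright as that percentile and a difference of 1 means 2-fold.

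Not all arrays could be read as ovary. Replicate 1 was left out, because the correlation of its spots with the remaining slides was -0.00243 to 0.00399 where the grid had been placed and by 0.459 to 0.717 after a shift of the grid. Among the 20 arrays of replicates 2 to 6, the 0.3 ppb arrays of replicates 3, 5 and 6 correlated with the median 0 ppb array by 0.598 to 0.614, against 0.899 to 0.973 for the other 17 arrays, with the receptor targets left out. On these 3 arrays all 16 targets of an oocyte marker list lay below all 17 other arrays and 18 of 19 targets of a neuron marker list lay above them, as did 8 of 9 for radial glia and 9 of 10 for oligodendrocytes. A list for somatic cells of the ovarian follicle was mixed: 4 of 11 targets lay below and 1 above, with a median difference of -0.92. Of a blood list 6 of 7 targets lay above, and of a skeletal muscle list 5 of 13, with 1 below and a median difference of 1.58. Among all 75734 targets compared, 27.6% lay above all 17 arrays and 16.3% below, with a median difference of 1.15. The medians of the muscle list and of the retina list given next lay near this. Of a retina list 3 of 6 targets lay above, with a median difference of 1.43 and 4.67 for the rod opsin gene rho. A pituitary list had a median difference of -0.21 and 1 of 8 targets above, pomca with 3.31, while smtlb, with 3.82, lay above the others once 3 ppb replicate 6 (described next) was left out. What tissue these 3 arrays hold was not tested, and the split was made from the arrays themselves, so that differences between the 3 and the 17 arrays are given as descriptions without a test. In bulk RNA, more cells of a type and more RNA per cell cannot be told apart. A further array, 3 ppb replicate 6, had 31.4% of its probes well above background, whereas the other 16 arrays had 62.2 to 86.0%. It carried a mark for a poor grid, as did 30 ppb replicate 2. Its lowest level for a probe well above background was -3.09, against -8.03 to -6.74 on the other 16. It was the highest of the 17 arrays for 21 of the 32 receptor targets, and values without it are given for some of these only.

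On the 3 arrays at 0.3 ppb, 28 of the 32 receptor targets lay above all 17 other arrays, which was also so for 27.6% of the 75734 targets compared. A single receptor target, gabra6a, lay below all 17, as did 16.3% of all targets. The difference between the mean of the 3 arrays and the median of the 17 had a median of 5.34 over the receptor targets (range -2.42 to 9.91) and of 1.15 over all targets. It exceeded 4 for 20 receptor targets, beside 10.9% of all targets. Many of these sizes depend on probes that were near background on the 17 arrays: the median was 3.30 over the 5 receptor targets that had a probe well above background on all 20 arrays, and 2.63 with normexp background correction. Without 3 ppb replicate 6 the counts stayed at 28 and 1, beside 31.0% and 16.4% of all targets. The plot of levels by array shows both sets of arrays.

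**Figure D1:**
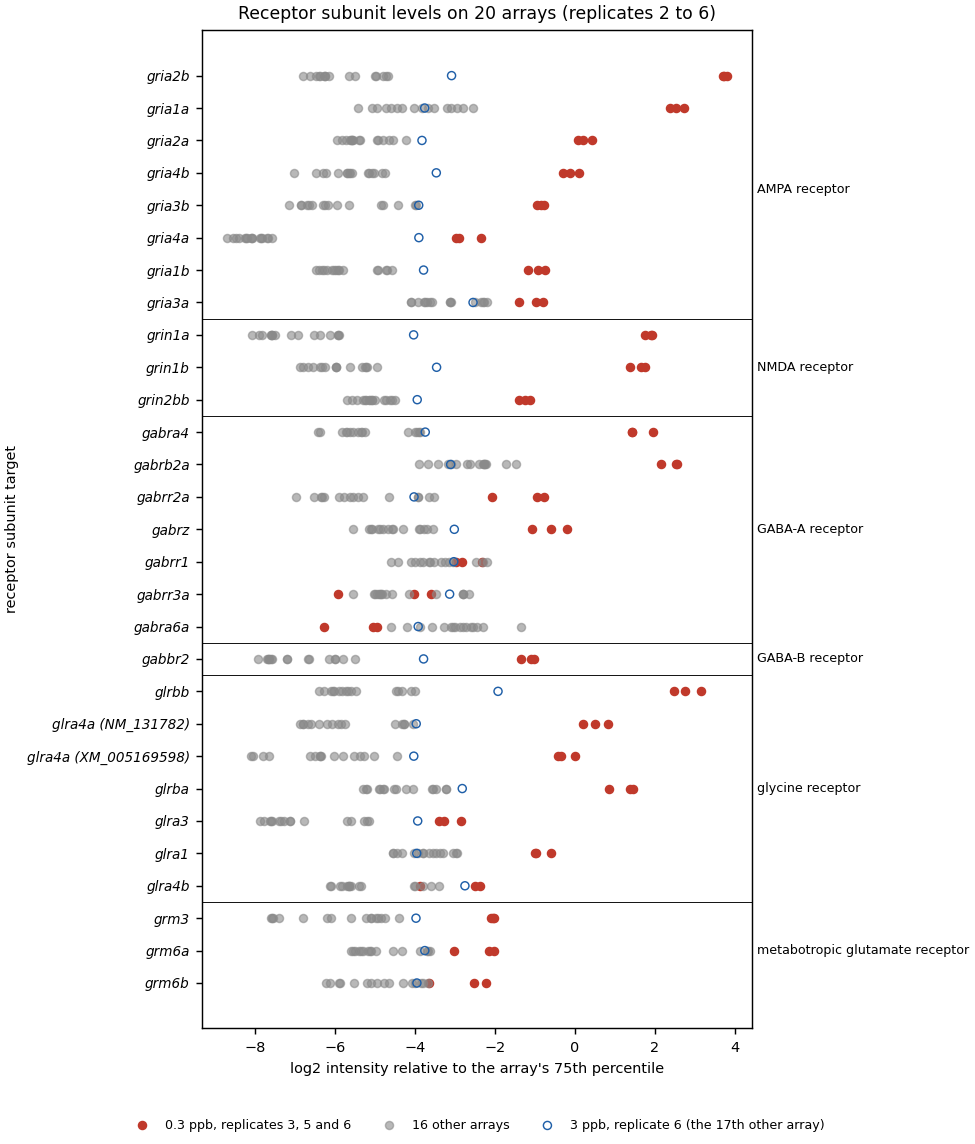
Level of 29 of the receptor targets (rows, grouped by receptor type) on 20 arrays; the x axis is the log2 intensity relative to the array's 75th percentile, and each point is 1 array. For 25 of these targets the 3 red points lie right of all others, for gabra6a they lie left of them, and 3 ppb replicate 6 (open circle) is the highest of the 17 other arrays for 19 targets.

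Among the AMPA receptor subunits, which form the channels of fast excitatory transmission, all 8 targets lay above the 17 arrays, with a median difference of 5.43. gria2b (NM_131895) is a copy of the gene for the GluA2 subunit, which limits the entry of calcium. Its levels were 3.81, 3.71 and 3.73 on the 0.3 ppb arrays of replicates 3, 5 and 6, against a lowest level of -6.82, a median of -6.16 and a highest of -3.09 on the 17 other arrays. The highest was that of 3 ppb replicate 6 and the next was -4.69, so that the gap between the sets was wide with or without this array. The difference was 9.91 over its 4 probes. The probe that was well above background on 16 of the 17 arrays gave 7.99, and the other 3, so marked on 9, 12 and 0 of them, gave 9.76 to 11.66, sizes that depend on levels near background. The other copy, gria2a (NM_131894), stood at 0.09, 0.20 and 0.43, against -5.95, -5.39 and -3.83 for the lowest, median and highest of the 17. Its difference of 5.63 was smaller than that of gria2b on each of the 3 arrays (gria2a minus gria2b, -4.49 to -4.07), and its probe marked on 16 of the 17 arrays gave 4.77.

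For gria1a (NM_205598), which encodes a GluA1 subunit, the 3 arrays had levels of 2.38, 2.54 and 2.73, and the 17 arrays ranged from -5.42 over a median of -3.82 to -2.55. The difference of 6.38 (83.0-fold) rested on 3 probes that gave 6.30 to 6.86. Its copy gria1b differed by 4.99, with single probes between 2.36 and 6.76. At the low end stood gria3a (NM_198339), a GluA3 gene, with -1.40, -0.96 and -0.79 on the 3 arrays and -4.11, -3.13 and -2.20 as the lowest, median and highest of the 17. Its difference was 2.08, or 4.23-fold. That of gria3b was 5.34, but its probes were well above background on 13 and 4 of the 17 arrays and gave 3.90 and 6.32. The gap between these copies thus depends in part on levels near background. Of the GluA4 copies, gria4b differed by 5.51 and was well above background on 16 of the 17 arrays. gria4a differed by 5.33 but was well above background on 1 of the 17, so that this size rests on levels near background and the copies could not be compared.

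The 3 NMDA receptor targets followed the same direction. NMDA receptors need a GluN1 subunit, which binds glycine or D-serine, and both zebrafish copies of its gene were measured. The level of grin1a (NM_001076714) was 1.77, 1.93 and 1.90 on the 3 arrays, and -8.08, -7.10 and -4.04 were the lowest, median and highest of the 17 others, a difference of 8.97. On 7 of the 17 arrays it was well above background, and its 2 probes, so marked on 6 and 1 of them, gave 6.56 and 11.66. For grin1b (NM_001144131) the levels were 1.37, 1.76 and 1.66 on the 3 arrays, against -6.88, -5.98 and -3.46 in the same order on the 17, a difference of 7.57. Its probe marked on 16 of the 17 arrays gave 2.96, and those marked on 15 gave 6.67 and 8.04. The other probes, marked on 0 to 10 of the 17, gave 7.70 to 10.35, sizes that depend on levels near background. The glutamate-binding subunit gene grin2bb differed by less, 3.83. Without 3 ppb replicate 6 the highest of the other arrays was -5.902 for grin1a and -4.956 for grin1b.

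The metabotropic glutamate receptors differed by less than most other glutamate receptor targets. The 3 targets lay above all 17 arrays, by 3.18 for grm3, 2.71 for grm6a and 1.98 for grm6b. grm3 encodes a receptor that lowers cyclic AMP, and the grm6 receptor serves the ON bipolar cells of the retina. For grm6b the separation was slight with the slides pooled: its level was -3.65, -2.23 and -2.53 on the 3 arrays, while the highest of the 17 was -3.68. Against the 0 ppb array of the same slide it was higher by 2.24, 1.77 and 1.54 on replicates 3, 5 and 6.

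The GABA-A receptor subunits were the most divided group. Of the 9 targets, 6 lay above the 17 arrays, 2 overlapped with them and 1 lay below. The alpha subunit gene gabra4 (NM_001017822) had levels of 1.44, 1.96 and 1.43 on the 3 arrays, against -6.42, -5.35 and -3.75 as the lowest, median and highest of the 17, a difference of 6.96. gabrb2a (NM_001024387), for a beta subunit, had 2.16, 2.54 and 2.57 on the 3 arrays and -3.90, -2.64 and -1.48 in the same order on the 17, a difference of 5.06. Both sets of arrays were thus apart for both genes, and gabrb2a was well above background on all 17. The rho subunit gene gabrr2a differed by 4.30 and the zeta subunit gene gabrz by 3.95.

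The target that ran the other way with the slides pooled was gabra6a (NM_200731). The alpha subunit of this name is known in mammals from granule cells of the cerebellum. Its level was -6.27, -5.05 and -4.97 on the 3 arrays, and -4.60, -3.01 and -1.34 were the lowest, median and highest of the 17. It was well above background on 1 of the 3 arrays and on 16 of the 17. The difference was -2.42 and rested on 1 probe, and it was -3.66 with quantile normalization and -1.54 with normexp background correction.

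The rho subunits form GABA receptors best known from the retina, and 2 of them did not separate with the slides pooled. gabrr1 had levels of -2.98, -2.32 and -2.82 on the 3 arrays, inside the range of -4.62 to -2.20 of the 17 arrays. Its difference was 0.81, and it turned to -0.29 with quantile normalization and -0.17 with normexp. gabrr3a had -5.92, -3.60 and -4.02 on the 3 arrays and ranged from -5.57 to -2.65 on the 17, with a difference of 0.23 that became -1.25 with quantile normalization and -0.49 with normexp. On both, replicate 3 was the lowest of the 3 arrays. Within its own slide, however, gabrr3a was below every other array on replicates 3, 5 and 6. Those ranged from -4.996 to -4.738 on replicate 3 and from -2.811 to -2.645 on replicate 5. On replicate 6 they ranged from -3.465 to -2.803. Against 0 ppb on the same slide gabrr3a differed by -0.92, -0.95 and -0.55. gabrr1 lay above the other arrays of its slide on replicate 3 and inside their range on replicates 5 and 6. The median of all targets, 1.15 as scaled here, was 0.12 with quantile normalization and 0.05 with normexp. Relative to the median of all targets, 29 of the 32 receptor targets were higher under each of the 3 scalings, and the exceptions were gabra6a, gabrr1 and gabrr3a.

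The GABA-B receptor target, gabbr2, encodes the subunit that couples to the G protein. Its levels were -1.35, -1.11 and -1.01 on the 3 arrays, against -7.93, -7.21 and -3.79 for the lowest, median and highest of the 17, a difference of 6.05. Without 3 ppb replicate 6 the highest was -5.518. It was well above background on 7 of the 17 arrays.

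For the glycine receptor, which mediates inhibition mainly in spinal cord and brainstem, 6 of 7 targets lay above the 17 arrays, with a median difference of 5.71. The beta subunit links the receptor to its scaffold gephyrin. Its gene glrbb (NM_001003587) had levels of 2.49, 2.76 and 3.17 on the 3 arrays, against -6.40, -5.67 and -1.92 as the lowest, median and highest of the 17, and without 3 ppb replicate 6 the highest was -3.997. The difference was 8.48. Its copy glrba (NM_131781) differed by 5.71. The values lay closer where both copies were measured: the glrbb probe well above background on all 17 arrays gave 4.099, and the glrba probes so marked on 17 and 16 arrays gave 3.67 and 3.97. Of the alpha subunit genes, the 2 targets of glra4a differed by 6.44 and 6.10, glra3 by 3.96, glra1 by 2.94 and glra4b by 2.69. glra4b was the 1 glycine receptor target that overlapped, because its level on replicate 3 (-3.89, against -2.51 and -2.37 on the other 2) lay below the highest of the 17 arrays (-2.75, and -3.40 without 3 ppb replicate 6). Those highest levels came from other slides. Within its own slide glra4b was above every other array: on replicate 3 those were -5.83 to -5.61. On replicates 5 and 6 the highest of them were -3.399 and -2.752.

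Single probes bore the same sign in nearly all cases: 89 of the 91 receptor probes were higher on the 3 arrays than the median of the 17 and 2 were lower, the probe of gabra6a and 1 of 2 probes of gabrr3a. Of the 75734 targets compared, 53286 also had a difference above 0. A further limit is that 6 receptor probes were well above background on none of the 17 arrays. They were kept only through the 3 arrays, so their sign adds little. The same holds for 1 probe each of gabrz, grin1a and gria4a, marked on 1 of the 17 arrays, since the filter asked for 3. All 4 probes of gria4a thus passed only through the 3 arrays, although gria4a is counted among the 28 targets above all 17. The size differed between probes of a target. The 3 other probes of glrbb, well above background on at most 7 of the 17 arrays, gave 8.25 to 10.79, and the third of glrba, so marked on 6, gave 9.26. The bars and points in the plot of differences by probe show this spread.

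**Figure D2:**
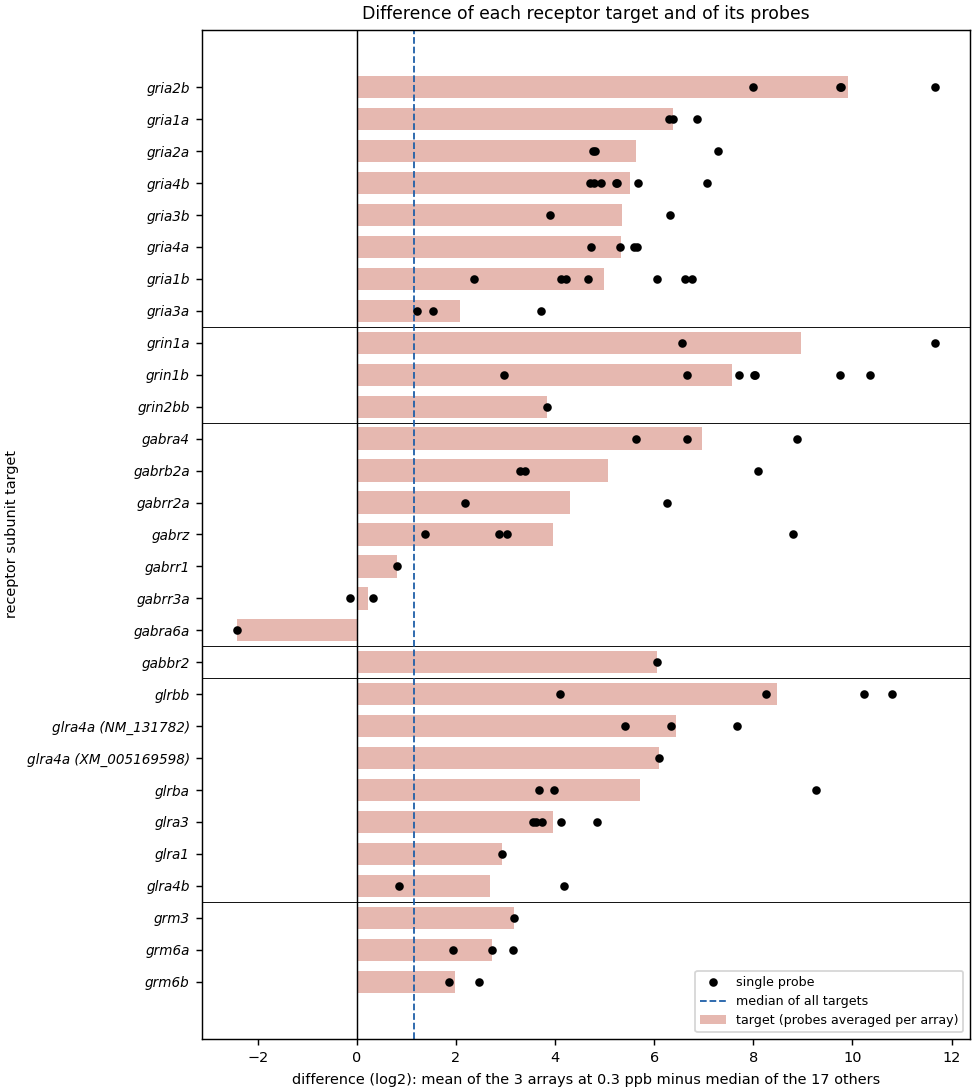
Difference between the mean of the 3 arrays at 0.3 ppb and the median of the 17 other arrays (x axis, log2) for 29 receptor targets (bars) and for each of its probes (black points). The dashed line marks the median of all targets, 1.15; the bars run from -2.42 for gabra6a to 9.91 for gria2b.

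Some of these genes lie side by side in the zebrafish genome (gene order of the RefSeq annotation of GRCz12tu). gria2a and glrba are neighbours with no annotated protein-coding gene between them, and so are their copies gria2b and glrbb. The differences were 5.63 and 5.71 in the first pair and 9.91 and 8.48 in the second, probes near background included. The neighbours gabra6a and gabrb2a went apart, by -2.42 and 5.06.

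**Figure D3:**
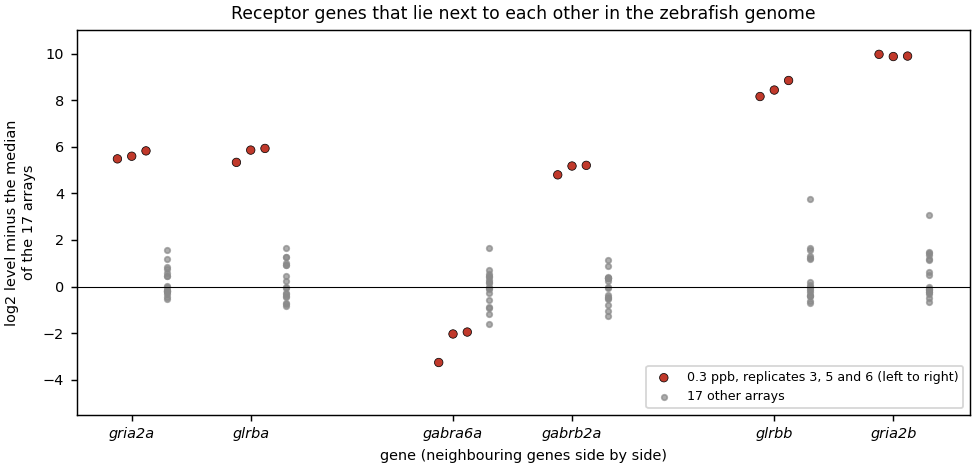
Level of neighbouring receptor genes minus the median of the 17 arrays (y axis, log2), with the 3 arrays at 0.3 ppb as red points and the 17 other arrays as small grey points. In the pairs gria2a and glrba, and glrbb and gria2b, both genes are high on the 3 arrays, whereas gabra6a (-2.42) and gabrb2a (5.06) lie on either side of 0.

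Many of the subunits were also above background where the arrays looked like ovary. On at least 9 of the 17 arrays, 26 of the 32 targets had a probe marked well above background by the extraction software, beside 65.0% of all targets, and 22 had one on at least 16 arrays, beside 47.8%. A target with more probes has more chances of such a mark, and the 32 receptor targets had 91 probes, whereas all 89208 targets had 128291. When at least 50% of the probes had to be marked, 23 targets remained, beside 64.3% of all targets. Of the 91 receptor probes, 49 were marked on at least 9 of the 17 arrays. The same share was not taken over all probes, so this count cannot be read as high or low. Of the 19 neuron marker targets, 15 were likewise marked on at least 16 arrays, and their part in the receptor marks was not tested. The GABA-A beta subunit gene gabrb2a had all 3 of its probes marked on 16 of the 17 arrays, gria1a all 3 on 15 and gria3a all 3 on 14. The single probes of gabra6a, gabrr1, glra1 and grin2bb were marked on 16. In most other targets with several probes fewer of them carried the mark, as in gria2a, where 1 probe was marked on 16 arrays and the other 2 on 10 and 6.

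The 6 targets marked on all 17 arrays were gria3a, gabrb2a, grin1b, glrbb, glrba and glra4b, beside 24.6% of all targets. At this strictest mark the receptor targets were thus not above the share of all. This mark also asks for 3 ppb replicate 6, where 31.4% of the probes were marked. On at least 16 arrays it was 22 targets, beside 47.8% of all. In grin1b no single probe was marked on all 17. Among the 6 below 9 arrays were gria4a, gabbr2, grin1a, glra3 and the second glra4a target (XM_005169598). All but gria4a of these followed the slide. On the 5 arrays of replicates 5 and 6 that were neither at 0.3 ppb nor 3 ppb replicate 6, gabbr2, grin1a, glra3 and this glra4a target were marked on all 5, whereas on the 11 arrays of replicates 2 to 4 each of them was marked on 2 or 3. gria4a was marked on 1 of the 5 and on 0 of the 11. The share of all probes marked was 81.0 to 86.0% on those 5 arrays and 62.2 to 74.4% on the 11.

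The level itself also followed the slide. The median of the receptor targets, each taken relative to its median over the 17 arrays, was 5.18, 5.42 and 5.32 on the 3 arrays of 0.3 ppb. On the other arrays it lay between 0.87 and 1.63 for replicates 5 and 6, scanned together, and between -0.46 and 0 for replicates 2 to 4. For all targets the median was 0.30 to 0.72 and -0.27 to 0 on the same arrays. The plot of medians by array sets the receptor targets beside the neuron and oocyte lists, whose medians on the 3 arrays were 7.84 to 8.31 and -9.34 to -8.16.

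**Figure D4:**
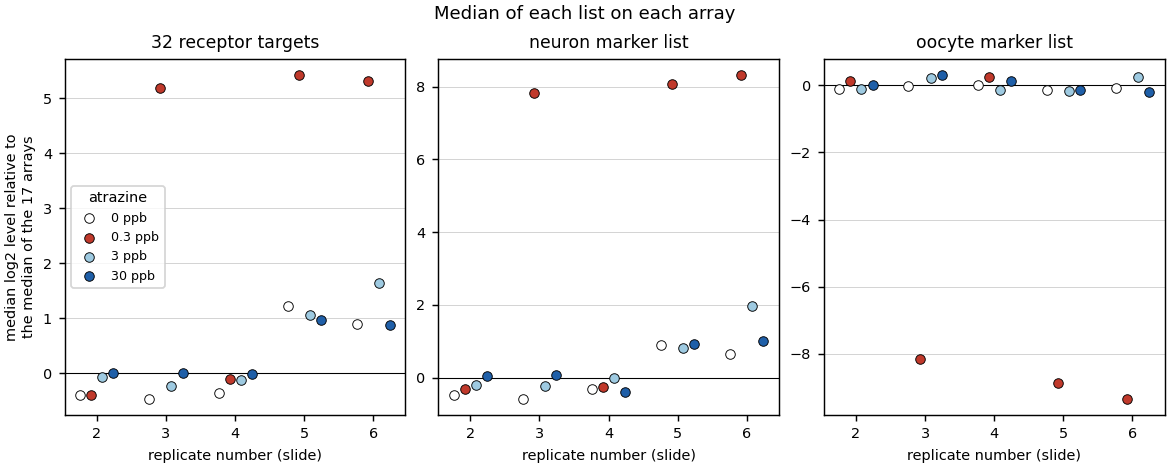
Median of the 32 receptor targets, of a neuron list and of an oocyte list on each of 20 arrays, relative to the median of the 17 arrays (y axis, log2), by replicate number and treatment (color). The receptor median is 5.18 to 5.42 on 3 of the 0.3 ppb arrays and at most 1.63 elsewhere. Apart from these 3 arrays, those of replicates 5 and 6 lie above those of replicates 2 to 4 in the receptor and neuron panels, but not in the oocyte panel.

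The treatments were then compared as labelled. At 0.3 ppb, 3 of the 5 arrays were those that stood apart. In that comparison an effect of atrazine and the difference between these arrays and the rest cannot be told apart. At 0.3 ppb against 0 ppb, limma (Benjamini-Hochberg adjusted p below 0.05 over 77377 targets, and at least 1.5-fold) called 0 of the 32 receptor targets and 0.00388% of all targets, with 25 receptor targets and 26778 of all at an unadjusted p below 0.05. The median log2 fold change of the receptor targets was 2.90 and that of all targets 0.34. The receptor target with the smallest p was gria1a, with levels of -4.32, 2.38, -2.79, 2.54 and 2.73 at 0.3 ppb (replicates 2 to 6) and -5.08, -3.20, -4.95, -2.55 and -4.74 at 0 ppb. The mean was 0.11 ± 3.39 at 0.3 ppb and -4.10 ± 1.15 at 0 ppb (SD, n = 5 each), a log2 fold change of 4.21 (SE 1.099, limma adjusted p = 0.056). Its replicates 2 and 4 at 0.3 ppb lay among the 0 ppb values, and the other 3 lay above all of them. gabra6a had the smallest p among lower targets, at -4.45 ± 1.44 for 0.3 ppb and -2.72 ± 0.92 for 0 ppb, a log2 fold change of -1.74 (SE 0.64, limma adjusted p = 0.071).

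The replicate numbers pair the arrays of a slide, and with the slide as a block limma called 27 receptor targets at 0.3 ppb, 26 higher and 1 lower, beside 16.7% higher and 10.4% lower among all targets. The higher ones included gria1a (limma adjusted p = 0.0378). The lower one was gabrr3a, with a log2 fold change of -0.69 (SE 0.21, limma adjusted p = 0.0378), which on each of the 5 slides was lower at 0.3 ppb than at 0 ppb (differences of -0.95 to -0.38). Not called with the block were gabra6a (adjusted p = 0.0646 by limma), gabrr1, glra1, glra4b and grm6b. The median difference between 0.3 and 0 ppb on the same slide was 5.43, 4.24 and 4.73 for replicates 3, 5 and 6 and -0.03 and 0.23 for replicates 2 and 4.

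Restricted to replicates 2 and 4, the 0.3 ppb arrays had a median log2 fold change against 0 ppb of -0.43 over the receptor targets and -0.36 over all targets, and of 0.04 and -0.01 with the slide as a block. Since these 2 arrays remained after the others had been set aside by their values, no test is given. Without the block, the largest change upward relative to its standard error was that of gria1a (0.55, SE 0.70). The largest downward was that of gabrr1 (-0.85, SE 0.54). With the block these became 0.74 (SE 0.72) and -0.39 (SE 0.35). Among the targets reported by name, the largest with the block were then gabrr2a upward (0.81, SE 0.39) and gabrr3a downward (-0.46, SE 0.24).

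At 3 ppb and at 30 ppb no receptor target was called against 0 ppb by limma, with or without the block, and 0 of 32 were at an unadjusted p below 0.05 without it. Among all targets, 0.00129% were called at 3 ppb and 0% at 30 ppb, with 1810 and 1128 at an unadjusted p below 0.05. The median log2 fold change of the receptor targets was 0.27 at 3 ppb (24 higher, 8 lower, SE of single targets 0.30 to 0.78) and 0.20 at 30 ppb (25 higher, 7 lower). Over all targets the median was 0.09 at 3 ppb, with 38.5% lower, and 0.10 at 30 ppb, with 35.6% lower. The receptor median at 3 ppb became -0.14 without its replicate 6, and that of all targets became -0.06. The 0 ppb array of the same slide stayed in that fit, which had no block. Against 0 ppb on the same slide, the receptor median at 3 ppb was 0.21, 0.09, 0.24 and -0.17 for replicates 2 to 5 and 0.91 for replicate 6. Without the block the smallest p at 3 ppb belonged to gria4a, which was well above background on none of the 5 arrays there and on 1 of 5 at 0 ppb. It had levels of -8.48, -7.70, -8.08, -8.21 and -3.91 in replicates 2 to 6 at 3 ppb and of -8.70, -8.57, -7.87, -8.42 and -7.88 at 0 ppb, so that replicate 6 alone stood apart. With the block the smallest p was that of gabrz, which was higher at 3 ppb than at 0 ppb on all 5 slides (by 0.22 to 0.68), a log2 fold change of 0.52 (SE 0.19) that did not pass the test (limma adjusted p = 0.647). gabra6a had -3.30 ± 0.72 at 3 ppb and -2.72 ± 0.92 at 0 ppb, a log2 fold change of -0.59 (SE 0.52, limma adjusted p = 1.00). At 30 ppb the targets with the smallest p were glra1, with a log2 fold change of 0.51 (SE 0.30), and the second glra4a target, with -0.82 (SE 0.73), each at an adjusted p of 1.00 by limma. Neither of these passed the test.

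**Figure D5:**
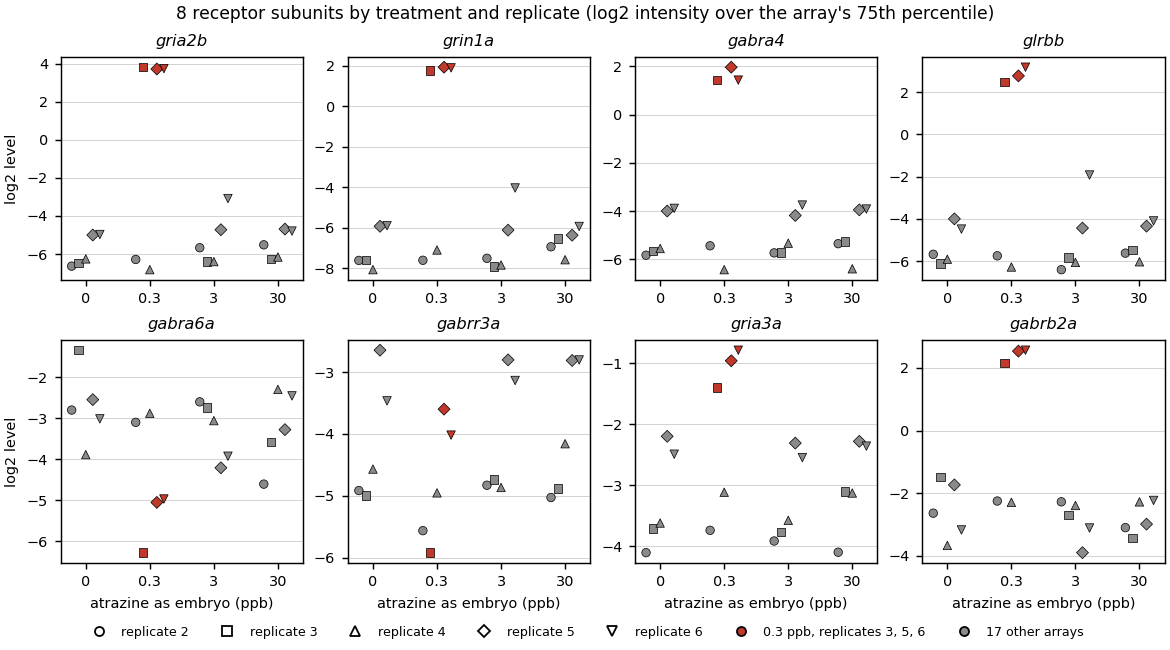
Levels of 8 receptor subunits (y axis, log2 intensity over the array's 75th percentile, each panel with its own scale) at 0, 0.3, 3 and 30 ppb atrazine; each point is 1 array and its shape is the replicate number. Replicates 3, 5 and 6 at 0.3 ppb (red) stand above the rest except for gabra6a, where they lie lowest, and gabrr3a, where they overlap the others.

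The genes that work with these receptors were described from lists of 130 auxiliary subunits, scaffold proteins, transporters and enzymes, of which 81 genes had 85 targets. On the 3 arrays 54 of the 85 lay above all 17 other arrays and 10 below, beside 27.6% and 16.3% of all targets, and the median difference was 2.81, beside 1.15 over all targets. The median was 5.03 for 15 targets of AMPA receptor auxiliary and anchoring proteins, 2.92 for 33 of postsynaptic scaffolds and 2.03 for 37 of transmitter transporters and enzymes. At 0.3 ppb against 0 ppb limma called none of the 85 without the block (51 at an unadjusted p below 0.05), and 38 higher and 8 lower with it, beside 16.7% and 10.4% of all targets.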

How the data were processed

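Total RNA of ovaries was labelled with Cy3, hybridized to custom zebrafish arrays, 4 to a slide, and read by the authors with Agilent Feature Extraction 11.5. The deposited values used here are the intensity of each spot after the software's background subtraction and detrending, the median spot and background intensity, and software marks for other properties (outlier, well above background). They are not normalized between arrays; the later normalization by the authors is not in them. Columns of other samples numbered 0.

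Here the log2 intensity (floor 1) minus the array's 75th percentile was averaged over spots, then over probes of a target. Outlier spots (0.107 to 10.4% per array) were left out, and a probe was kept if 3 or more of the 20 arrays of replicates 2 to 6 had it well above background, which held for probes of 77383 of 89208 targets and for all 91 receptor probes. limma 3.58.1 in R 4.3.3 fitted all 4 groups on 20 arrays for 0.3 ppb, and the 0, 3 and 30 ppb groups on 15 arrays for 3 and 30 ppb, with at least 2 values per group. The moderated test without a block was tested before use on simulated data that had large shifts at 3 ppb and no slide effect. This did not cover the 0.3 ppb fit, the replicate block or changes as small as those seen at 3 and 30 ppb. The signal of the spot mean was planned for normexp (offset 50), and the median was used in its place. No receptor probe was saturated. The number of arrays limits the precision. The p-values measure the spread between these samples.

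The receptor targets, the lists and the tests were chosen with earlier results of these data known. Named were, in each family, the 2 targets with the largest and the 1 with the smallest difference, up to 15 targets well above background on 14 or more of the 17, the target with the smallest p in each direction, and those whose 3 arrays did not lie above the 17; others are given by their difference, and 3 targets enter the counts only and are not reported here by name. The replicate numbers were taken to pair the arrays, since each number has 1 slide. That each number also stands for 1 start day was inferred from the methods and is not in the labels. Within a number, 14 of 15 pairs of arrays deviated together from their group means (r over 0.1; medians by number 0.265, 0.402, 0.290, 0.641 and 0.384). The 60 pairs across numbers had a median r of -0.254. Deviations from a group mean sum to 0, so positive values within numbers force negative ones across them, and this contrast adds no support. What part the session of scanning has in the values within numbers was not tested. Each treatment always had the same place on the slide, so place and treatment cannot be told apart. Alternatives were quantile normalization, normexp, no and a strict filter on dim probes, the median over probes, replicate 1 added, each replicate number left out, a replicate block, only the 2 groups compared, all 4 groups, array weights and the methods' ANOVA with Tukey's test. Leaving out 3 ppb replicate 6 was added after seeing the data.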

Additional observations from a re-analysis of the deposited data

Results flagged for a closer look

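In 2 of the 116 groups of 5 arrays formed by 29 receptor targets and 4 treatments, 1 array stood apart from the other 4 by Dixon's criterion at the 95% level, which chance gives in about 1 in 20 groups. For gria4a at 3 ppb, replicate 6 had a level of -3.91 and the next highest array -7.70, a gap of 0.830 of the range of the group. It was not well above background on that array, the one with 31.4% of its probes so marked. For gabbr2 at 30 ppb, replicate 5 had -5.52 and the next highest array -7.21, a gap of 0.768 of the range.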

How the results depend on the processing

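At 0.3 ppb against 0 ppb the count of receptor targets called, 0 of 32, was 24 with quantile normalization, 26 with normexp, 2 of 5 with probes well above background on all arrays, 27 with the replicate block, 31 with array weights and 9 by the methods' ANOVA and Tukey's test without adjustment, and it ranged from 0 to 25 when 1 replicate number was left out. Without replicate 2 or without replicate 4, it was 25 and 20. The count over all targets, 3, became 21559, 24191, 9452, 20916, 61758 and 12078 under the same settings in this order, 1 with only the 2 groups compared, 0 with replicate 1, and 0 to 22339 with 1 replicate number left out. Of these calls 54.9% were higher with quantile normalization, 59.5% with normexp, 29.4% with the strict filter, 61.7% with the block, 76.0% with array weights and 45.5% by the ANOVA, whereas all 3 were lower in the fit without a block. The median log2 fold change of the receptor targets, 2.90, became 1.55 with normexp, 1.95 with the strict filter and 5.49 with array weights, and ranged from 2.17 to 3.70 with 1 replicate number left out.

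At 3 ppb the count over all targets, 1, was 0 with quantile normalization, normexp, replicate 1, the replicate block, only the 2 groups, all 4 groups or without 3 ppb replicate 6, 2 with array weights and 118 by the ANOVA, and 0 to 4 with 1 replicate number left out. At 30 ppb it was 1 with the strict filter, 5 with array weights, 58 by the ANOVA and 0 to 4 with 1 replicate number left out. No receptor target was called at 3 or 30 ppb under the limma settings tried, and the block changed no call there. The second glra4a target changed sign at 30 ppb with array weights (0.18). The median of 0.3 ppb replicates 2 and 4 against 0 ppb became 0.44 with replicate 1.

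For the 3 arrays at 0.3 ppb against the others, the 28 targets above all others became 8 with the misplaced arrays of replicate 1 among the others, beside 8.37% of all targets, and 3 of 5 with the strict filter. The share of all targets under the strict filter is not given here, so that count cannot be read as high or low. The median difference became 2.63 with normexp and 3.30 with the strict filter. gabrr1 changed sign with quantile normalization (-0.29) and normexp (-0.17). Of the 26 targets well above background on at least 9 arrays, 6 were so on all 17, 3 ppb replicate 6 included, and 22 on at least 16. Causes of these changes were not tested. The signal of 6 receptor probes was well above background on none of the 17 arrays, so that their differences depend on levels near background.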
